A study of Mus musculus with 4 samples.

Results

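The 60 cells described here were endothelial-like cells, the cells that line blood vessels, from the testis of ICR mice given busulfan, an alkylating anti-cancer drug that damages germ cells. They were chosen by 5 endothelial genes (Pecam1, Cdh5, Egfl7, Esam and Emcn) in the busulfan-alone library, B0. Of its 4659 cells, 94 had a transcript of at least 2 of the 5 genes, and the 60 with the highest mean deposited value over the 5 genes were kept. They made up 1.29% of the B0 cells, and the 4599 others served as the comparison. The whole series held 27060 cells.

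Transcripts were counted by droplet single-cell RNA sequencing, in which a unique molecular identifier (UMI) marks each captured RNA molecule. There were 4 libraries, 1 per group, all from testes of young male ICR mice: water vehicle by mouth (A0), alginate oligosaccharides (AOS) in the same vehicle at 10 mg/kg body weight (A10), an injection of busulfan and then the vehicle (B0), and busulfan and then the same AOS dose (BA10). Each library came from pooled mice, so mouse-to-mouse spread could not be measured and no test between groups or cell sets was possible. The intervals below are exact 95% intervals that cover counting error only.

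Endothelial cells meet the blood on their inner face and are joined by claudins and cadherins. In vessels with a tight barrier, such as those of the brain, they carry efflux pumps and selective carriers, and pericytes wrap around them. In the testis the vessels run between the tubules, beside the hormone-producing Leydig cells and resident macrophages.

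The 5 genes chose the cells, so their values are given as a description. Egfl7, a secreted vessel protein, had a UMI in 59 of the 60 cells, Esam, an adhesion molecule of the junctions, in 54, and Cdh5, the cadherin of endothelial junctions, in 52. Emcn, a surface sialomucin, had one in 31 and Pecam1, an adhesion receptor, in 26. All 5 genes were seen in 11 cells, 4 in 25, 3 in 19 and only 2 in 5. The mean deposited value of the 5 genes ran from 2.13 down to 0.679, and the next cell outside the set had 0.667, so the cutoff fell within a continuous range. Among the 34 cells that passed the detection step but were left out, 30 had only 2 of the genes. When each gene was left out in turn and 60 cells were chosen by the other 4, between 55 and 60 of the same cells came back. The left-out gene was then seen in 26 (Pecam1), 48 (Cdh5), 54 (Egfl7), 49 (Esam) and 28 (Emcn) of those 60 cells, against 0.326%, 2.57%, 4.33%, 1.91% and 0.587% of the remaining B0 cells.

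**Figure D1:**
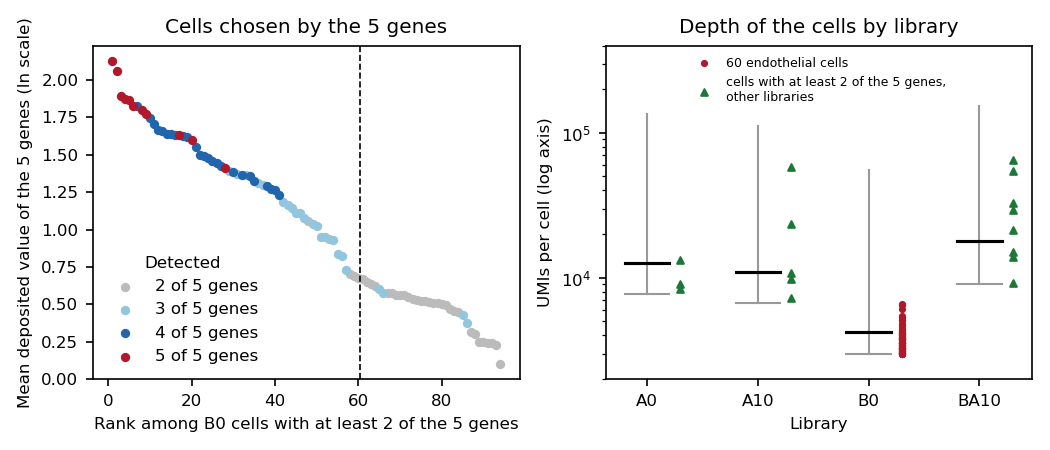
Left, the mean deposited value (natural-log scale) of the 5 genes in the 94 B0 cells with at least 2 of them, by rank and coloured by how many were detected; the dashed line follows the 60th cell. Right, UMIs per cell on a log axis for each library (grey line, range; black bar, median), with the 60 cells as red points, all below the lowest cell of A0, A10 and BA10, and green triangles for cells of those libraries with at least 2 of the 5 genes.

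A list of 30 further endothelial genes, none of which the rule used, was read to check the label. Each of the 60 cells had UMIs of 7 to 22 of them, with a median of 15, whereas the median of the other B0 cells was 0. Summed over the list, the level was 11200 counts per 1000000 UMIs (CPM) in the 60 cells (range over the cells 2246 to 22163) and 160 in the other B0 cells. Sets of the same size were built from B0 by the same rule with Leydig genes (Insl3, Cyp17a1, Cyp11a1, Star, Hsd3b1) and macrophage genes (Csf1r, C1qa, C1qb, C1qc, Adgre1), and these reached 157 and 335 CPM. The 60 cells were kept out of both sets, and the cells of the Leydig-like set out of the macrophage-like set. The sets were therefore separate by construction. All 60 cells carried the label's further markers, but the set was not complete. Of the other B0 cells 27 had at least 7 of the 30 genes, the lowest number in the 60 cells. At least 8 were seen in 18 of them, and 10 of those 18 were among the 34 cells left out at the ranking step.

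The cells were shallow. Their UMI totals ran from 2988 to 6642 with a median of 3590.5 (B0 median 4214), and 231871 UMIs were summed over the set, so 1 UMI was worth 4.31 CPM. A gene without a UMI in the set could still have had a level of up to 12.9 CPM, the value of 3 UMIs. None of the 60 barcodes recurred in another library.

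Of the 9751 genes with a UMI in at least 5 of the 60 cells or in at least 5% of the others, 1435 (14.7%) were at least 2-fold higher in the 60 cells and 2033 (20.8%) at least 2-fold lower, on the log2(CPM + 10) scale used for every log2 ratio below. Against the 3889 other cells within the UMI range of the 60, 987 of 8589 genes were lower and 1172 higher. With every cell thinned to 2900 UMIs, 1369 of 7790 were lower. When all 94 cells that passed the detection step were taken, 762 of 10248 were higher and 246 lower. The median log2 ratio over all genes looked at was -0.08.

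Cldn5, or claudin 5, had the largest log2 ratio (7.18) among the genes seen in at least 12 of the 60 cells, though several genes at lower levels had a larger fold. The gene, whose protein seals endothelial tight junctions (mm10 chromosome 16, 18776847 to 18778262, plus strand), had 3709 CPM (3465 to 3965) in the 60 cells, 15.6 in the other B0 cells, 7.83 in the Leydig-like set and 40.8 in the macrophage-like set. It was present in all 60 cells, with 2 to 50 UMIs and a median of 13. At least 10 Cldn5 UMIs were found in 41 of the 60 cells and in 0 of the 4599 others. The ratio of the sums was 237-fold (210 to 268).

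The sequence before the Cldn5 start is shown because this gene had the largest log2 ratio. It is the 250 bases upstream of the RefSeq start (GRCm38.p6, chr16:18776597-18776846, plus strand), 5′ to 3′:
Cldn5: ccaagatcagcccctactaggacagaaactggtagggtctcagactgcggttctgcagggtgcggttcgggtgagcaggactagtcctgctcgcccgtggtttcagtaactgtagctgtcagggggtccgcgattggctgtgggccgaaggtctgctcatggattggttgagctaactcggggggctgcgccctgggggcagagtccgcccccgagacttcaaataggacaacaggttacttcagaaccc

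The ETS motifs CCGGAAGT and CAGGAAGT and the SOX motif ACAATGG were searched on both strands in windows of 300 bases around gene starts, from RefSeq. Of the 35 genes in the rule and the endothelial list, 21 had a window, 25 windows in all. CCGGAAGT and ACAATGG were in 0 of these 25 windows (3.89% and 3.66% of all 32851 windows), and CAGGAAGT was in 1 (3.33% of all windows), a window of Egfl7. Among the 6 barrier and capillary genes searched in addition (Abcb1a, Abcg2, Slco1a4, Mfsd2a, Slc2a1 and Car4), 1 window of Abcg2 held CAGGAAGT. The stretches are printed below with the motif in capitals, to show where these letters stand before a start of a rule gene and of a leading transporter gene. They lie at chr2:26583724-26583851 and chr6:58596481-58596608 (GRCm38.p6, both on the plus strand), and the motif began 81 and 131 bases before the start:
Egfl7: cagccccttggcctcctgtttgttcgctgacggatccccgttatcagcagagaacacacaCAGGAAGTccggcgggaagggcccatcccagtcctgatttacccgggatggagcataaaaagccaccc
Abcg2: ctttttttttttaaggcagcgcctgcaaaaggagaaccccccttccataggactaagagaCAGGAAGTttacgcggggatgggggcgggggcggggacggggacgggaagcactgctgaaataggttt

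The efflux pumps and carriers of a tight vessel barrier were prominent in the 60 cells. Abcb1a, the P-glycoprotein drug pump, had 634 CPM in the 60 cells, in 52 of them, against 2.43 CPM in the other B0 cells (261-fold, 192 to 358). Abcg2, another drug pump, had 565 CPM against 6.58 (85.9-fold, 67.8 to 109), and was seen in 49 cells. Slco1a4, an organic anion carrier of brain vessels, had 384 CPM against 1.20 (321-fold, 210 to 503), in 41 cells. Mfsd2a, a carrier of lysolipids that marks the brain vessel barrier, had 259 CPM against 9.84 (26.3-fold, 19.5 to 35.0), in 33 cells. Of the 60 cells, 20 had UMIs of all 4 genes, 23 of 3, 11 of 2, 4 of 1 and 2 of none.

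In the Leydig-like set the 4 genes had 0, 3.91, 3.91 and 0 CPM in that order, and in the macrophage-like set 9.06, 31.7, 0 and 4.53 CPM, all at or under 7 UMIs. Of the 12 transport genes listed, 9 were at least 2-fold higher, 0 lower and 3 neither. Slc2a1, the glucose carrier Glut1, had 147 CPM against 9.17 in the other B0 cells, and Slc9a3r2, a membrane scaffold protein, had 423 against 11.996. Slc7a5, the large amino acid carrier, had 1164 against 492, but 1017 in the Leydig-like set. Its partner subunit Slc3a2 had 1065 against 691, under 2-fold, and the transferrin receptor Tfrc had 17.3 against 12.2.

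The junction genes were mixed. Of the 14 listed, 12 could be looked at, 9 were at least 2-fold higher and 1 was lower, with Cgnl1, a junction scaffold, at 229 CPM against 47.1, and Tjp1, which links claudins to the cytoskeleton, at 216 against 25.9. Ocln, a tight junction protein, had 17.3 CPM, only 4 UMIs in all. Of the 9 genes for caveolae and fenestrae, membrane pits and pores, 8 could be looked at and 7 were at least 2-fold higher, of which Cav2, Sdpr and Ehd2 were looked at only because the 60 cells had them. Ehd4, an ATPase of endosome and caveola traffic, had 1199 CPM against 27.2 (44.1-fold, 38.2 to 50.8), and Prkcdbp, a cavin of the caveola coat, 453 against 16.7. Cav1, the main caveola protein, had 73.3 CPM in 10 cells against 12.6. Plvap, which forms the diaphragms of fenestrae, had 0 UMIs in the 60 cells, which allowed up to 15.9 CPM. It had 4.66 CPM in the other B0 cells, so no difference could be measured.

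**Figure D2:**
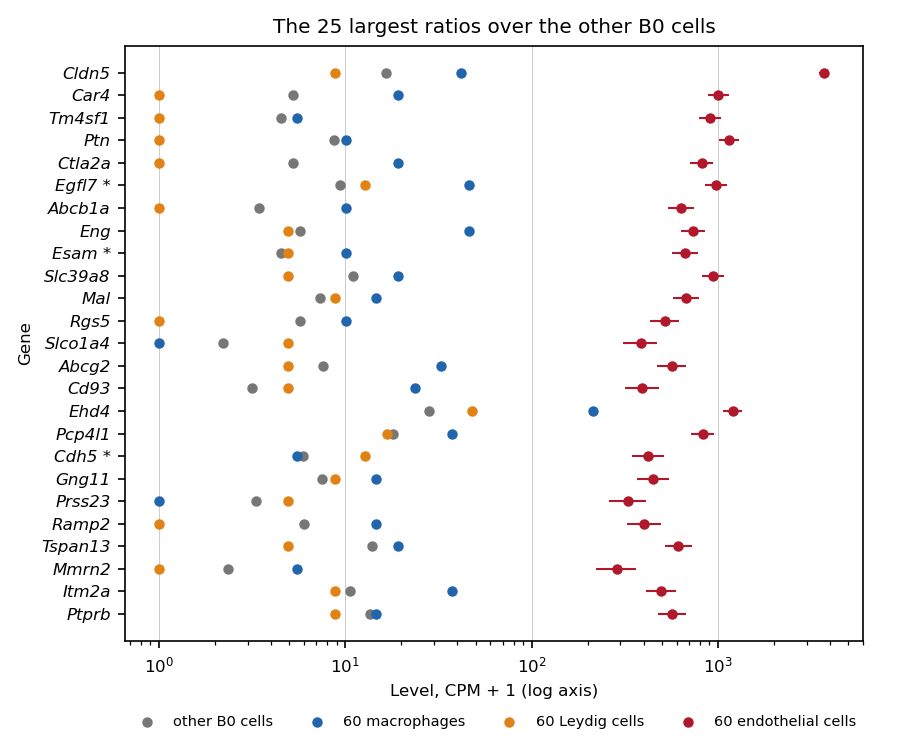
Level of the 25 genes with the largest log2 ratio (CPM + 1, log axis) in the 60 cells (red, bar: exact 95% Poisson interval), the other B0 cells (grey), the 60 Leydig-like cells (orange) and the 60 macrophage-like cells (blue); asterisks mark rule genes. Every red point lies to the right of the other 3 points in its row.

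The 25 largest ratios among genes seen in at least 12 of the 60 cells included 3 rule genes and 7 of the endothelial list, and all had log2 ratios of 4.69 or more. Car4, a membrane carbonic anhydrase of capillaries, had 1005 CPM against 4.22 (238-fold, 188 to 302). Tm4sf1, a membrane protein of endothelial cells, had 910 against 3.51 (259-fold, 201 to 337). Ptn, a secreted growth factor that binds heparin, had 1151.5 CPM against 7.65 (150-fold, 125 to 182). Slc39a8, a zinc and manganese importer, had 940 against 10.0 (93.6-fold, 77.7 to 113), and Eng, a co-receptor for BMP and TGF-beta ligands, had 737 against 4.74 (155.5-fold, 122 to 198). Of the 25 genes, 22 were seen in at least 40 of the 60 cells. The exception with the fewest cells was Rgs5, a pericyte gene found in 27, which is taken up below.

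Genes for transcription factors of endothelial cells were mostly higher: 19 of the 20 that could be looked at (23 listed, 22 in the table), with a median log2 ratio of 2.40 over the 22. Sox18, which acts early in vessel formation, had 237 CPM against 1.43, and Sox17, an arterial factor, 142 against 7.53. The ETS factors Fli1 and Erg had 375 and 116 CPM against 5.74 and 1.20. Epas1, the hypoxia-inducible factor HIF-2 alpha, had 410 against 9.17, and 11.7 and 9.06 in the Leydig-like and macrophage-like sets. Klf2, induced by blood flow, had 496 against 64.7, but 489 in the macrophage-like set, so it did not set the 60 cells apart from macrophages. Klf4, Mef2c and Lyl1 were also close to that set, at 160, 280 and 51.8 CPM against 150, 344 and 49.9. Sox18 and Erg had 0 CPM there. Nr2f2, a venous factor also made by Leydig cells, had 142 against 76.4, under 2-fold.

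Receptors of the vessel growth pathways were present at modest counts. Kdr and Flt1, the main VEGF receptors, had 160 and 190 CPM, seen in 24 and 25 of the 60 cells, against 1.83 and 1.04 in the others. Nrp1, their co-receptor, had 630 against 62.7, but 440 in the macrophage-like set. Tek and Tie1, the angiopoietin receptors, had 73.3 and 90.6 CPM against 0.518 and 0.757, and Ptprb, the phosphatase that acts on Tek, 569 against 12.5. Among the ligands, Vegfc had 47.4 CPM in 8 cells against 0.0797, whereas Vegfd had 17.3 against 128, in a library whose Leydig-like set had 215. Vegfa had 69.0 CPM against 9.45, and Pgf had 0 UMIs.

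In the Notch list, 7 of 11 genes could be looked at and all 7 were at least 2-fold higher, among them Notch1 (138 CPM against 5.38), its ligand Dll4 (47.4 against 0.478) and the feedback inhibitor Nrarp (77.6 against 2.51). In the BMP and TGF-beta list, 10 of 11 were higher. Id1 and Id3, direct targets of BMP signals in endothelial cells, had 190 and 280 CPM against 7.81 and 6.50. Acvrl1, the BMP9 receptor, had 99.2 against 8.53.

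Markers of several vessel types were seen in the same set. Capillary Car4 was seen in 49 of the 60 cells, and Vwf, the clotting protein common in veins, in 35, of which 31 also had Car4. Of the 15 arterial genes, 8 could be looked at and all 8 were at least 2-fold higher, but 7 of them were looked at only because the 60 cells had them. Of the 7 others, Gja5, Hey2 and Stmn2 had 0 UMIs, Hey1 and Fbln5 had 1, Unc5b had 2 and Sema3g had 4. At least 1 of the arterial genes Gja4, Efnb2, Dll4, Bmx and Sema3g was seen in 30 cells, of which 26 also had Car4 and 16 had Vwf. Gja4, an arterial connexin, had 104 CPM in 14 cells, while Gja5, the other arterial connexin, had 0 UMIs in all of B0. Aplnr, the apelin receptor, had 112 CPM in 23 cells, and Rbp7, a capillary retinol-binding protein, 69.0 in 13. Of the 10 capillary genes, 8 could be looked at, of which 5 were at least 2-fold higher, 1 lower and 2 neither. All 5 were looked at only because the 60 cells had them. Among these, Fabp4 had a log2 ratio of -0.078 without the cells with at least 3 pericyte genes. Cd36, a fatty acid receptor, was the lower gene, with 43.1 CPM against 314 (657 in the Leydig-like set). Rgcc and Fabp5 were neither, with 73.3 against 35.6 and 86.3 against 121. Gpihbp1 and Aqp1, also capillary genes, had 0 UMIs in the 60 cells and at most 0.159 CPM in the others. Of the 6 venous genes looked at, Ephb4 and Vwf were at least 2-fold higher, both looked at only because the 60 cells had them, and Vcam1, Cpe and Lrg1 at least 2-fold lower (112, 160 and 34.5 CPM against 373, 353 and 327). Those 3 had 696, 528 and 614 CPM in the Leydig-like set, and the cause of their lower levels was not tested. Of the 6 tip cell genes looked at, 2 were higher, 1 lower and 3 neither. Both higher ones were looked at only because the 60 cells had them. The lower one, Kcne3, had a log2 ratio of 0.21 against other cells within the UMI range of the 60. With all 94 cells that passed the detection step it was 0.43. Angpt2, a Tek ligand, had 43.1 CPM in 10 cells against 0.837, Apln, the apelin ligand, had 121 against 97.7, and Esm1 had 0 UMIs in all of B0. None of the 5 lymphatic genes measured had enough cells to be looked at. Flt4, the VEGF-C receptor, had 5 UMIs in 4 cells, Pdpn 2 and Lyve1 1. Prox1 and Reln had 0, which allowed up to 15.9 CPM against 6.26 and 2.75 in the others.

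Basement membrane genes were high. Sparc, a matrix protein that binds collagen, had 7897 CPM against 1703 (4.64-fold, 4.42 to 4.86) and was seen in all 60 cells, with a median over the cells of 7880. Igfbp7, a secreted protein of vessel walls, had 7685 against 708 (10.9-fold, 10.3 to 11.4), also in all 60. The collagen IV chains Col4a1 and Col4a2 had 466 and 470 CPM against 27.9 and 18.5, and Hspg2, perlecan, had 190 against 12.5. Of the 12 basement membrane genes looked at, 9 were higher, 0 lower and 3 neither, among them Lamb2 at 108 against 80.1.

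All 9 class I antigen presentation genes in the table were at least 2-fold higher than in the other B0 cells. H2-D1, a classical class I heavy chain, had 2881 CPM against 379, and Psmb8, a subunit of the immunoproteasome, 332 against 39.3. The macrophage-like set had 2851 and 290 CPM of these genes, so the level was shared with macrophages. Of the immediate early genes, whose RNA comes up within minutes of a stimulus, 7 of 12 were higher and 5 neither, where 14.7% of all genes were higher: Jund had 988 CPM against 257 and Ier2 354 against 60.8, while Fos had 198 against 149. The summed list had 3097 CPM in the 60 cells, 955 in the other B0 cells and 599 in the Leydig-like set, and its 3313 in the macrophage-like set was as high as in the 60 cells. Of the p53 targets, 4 of the 10 looked at were higher (Bax, Bbc3, Phlda3 and Plk2) and 6 neither, with 2 of the 10 looked at only because the 60 cells had them. Bax, an effector of cell death, had 345 CPM against 144, and Cdkn1a, the cell cycle inhibitor p21, had 224 against 139. Summed, the p53 list had 949 CPM (828 to 1083) in the 60 cells, 585 in the other B0 cells and 481 in the Leydig-like set. The macrophage-like set had 829 CPM (714 to 959), with an interval that overlapped that of the 60 cells. Of the cell division genes, 0 of 13 were higher and 7 lower than in the other B0 cells, where 20.8% of all genes were lower. Against only those other cells within the UMI range of the 60, 1 of these 7 was at least 2-fold lower. The summed list had 319 CPM (251 to 401) against 891. It was lower still in the Leydig-like set, at 93.9 CPM (60.2 to 140), and was 798 in the macrophage-like set. Mki67, a marker of dividing cells, was seen in 3 cells, and 5 of the 60 cells had UMIs of at least 3 of the 13 genes.

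These list counts include genes that could be looked at only because the 60 cells had them, 24 of 28 in the endothelial list, 14 of 20 in the factor list, 7 of 7 in the Notch list, 8 of 11 in the BMP and TGF-beta list, 7 of 12 in the transport list, 2 of 12 in the basement membrane list and 10 of 10 in the pericyte list below. Such genes were looked at because they were high in the 60 cells, so the counts are a description. All list counts stand beside 14.7% higher and 20.8% lower over all genes looked at.

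**Figure D3:**
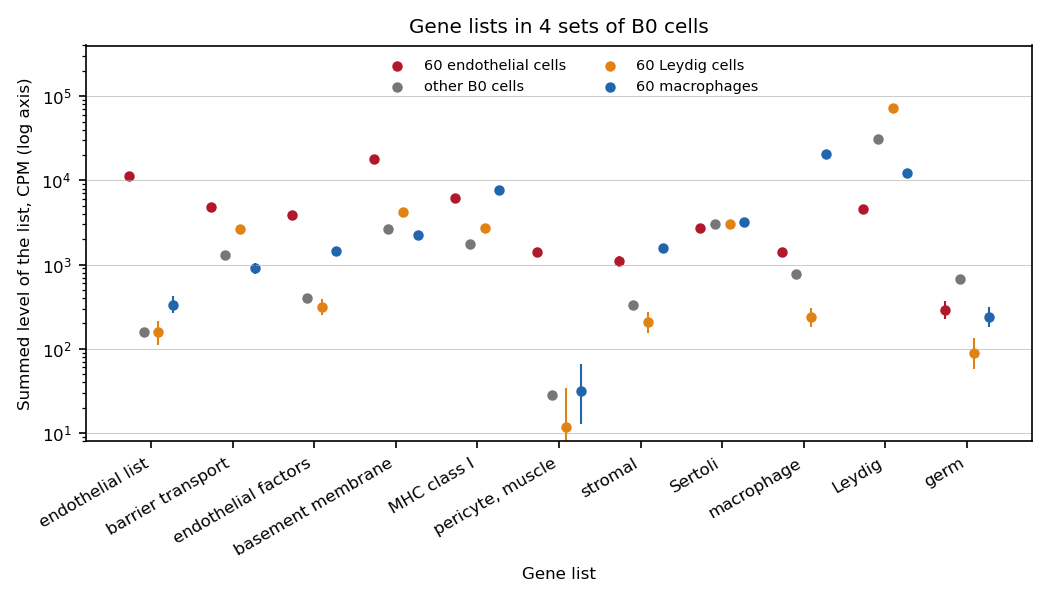
Summed level of 11 gene lists (CPM, log axis) in the 60 cells (red), the other B0 cells (grey), the 60 Leydig-like cells (orange) and the 60 macrophage-like cells (blue), with exact 95% Poisson intervals. The endothelial, barrier transport, factor, basement membrane and pericyte lists were highest in the 60 cells, and the Leydig and macrophage lists in the sets chosen by such genes.

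Pericyte and smooth muscle genes came with the endothelial genes in part of the set. Of the 12 listed genes, 10 could be looked at, all 10 only because the 60 cells had them, so their count was fixed by that filter. The summed list had 1406 CPM in the 60 cells, 28.0 in the others, 11.7 in the Leydig-like set and 31.7 in the macrophage-like set. Rgs5, a regulator of G-protein signals in pericytes, had 518 CPM against 4.74 (109-fold, 84.0 to 142). Pdgfrb, the receptor by which pericytes are recruited, had 216 against 2.23 and was seen in 20 cells, and Abcc9 and Kcnj8, which form a potassium channel of pericytes, had 134 and 77.6 CPM in 12 and 11 cells.

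Of the 11 pericyte genes that were not also in the endothelial list, 27 of the 60 cells had 0, 12 had 1 or 2 and 21 (35%) had at least 3. Among the other B0 cells 21 (0.457%) had at least 3. The 21 cells of the set were no deeper than the 27 without pericyte genes, with a median of 3696 UMIs against 3814. Their endothelial list level was close, at 10857 CPM against 11406, and both had a median of 15 endothelial genes. Other levels differed. Sparc had 8860 CPM (8220 to 9536) in the 21 and 7194 (6701 to 7714) in the 27, and Igfbp7 8436 against 6893. Car4 had 1360 (1117 to 1641) against 930 (758 to 1129), with overlapping intervals. In the 12 cells with 1 or 2 pericyte genes Car4 was at 523 CPM (328 to 792) and Sparc at 7894 (7068 to 8790). Igfbp7 was there at 8322 (7473 to 9241), close to its level in the 21. The Leydig list had 1760 CPM in the 21 and 7714 in the 27, which held the 3 cells highest in Leydig genes described below. The 27 also held the cell highest in Sertoli genes. Whether such cells lowered the levels of Sparc, Igfbp7 and Car4 in the 27 was not tested. Cldn5 was at 3619 (3214 to 4060) and 3757 CPM (3403 to 4137). Rgs5 had 1123 CPM (903 to 1381) in the 21 cells and 0 in the 27, where Pdgfrb, Abcc9, Kcnj8, Tagln and Acta2 were also at 0, as the split by these genes requires. Whether a droplet held 1 cell or an endothelial cell with an attached pericyte was not tested.

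Without those 21 cells, 27 endothelial genes were at least 2-fold higher, and the log2 ratios of Cldn5 (7.20), Abcb1a (5.50), Abcg2 (5.05), Slco1a4 (5.11) and Mfsd2a (3.64) stayed near those of the 60 cells (7.18, 5.70, 5.12, 5.14 and 3.76). Most pericyte genes were lower, as removing cells chosen by them requires, but not all came to the same level. Abcc9, Kcnj8 and Notch3 went from 3.41, 3.04 and 2.74 to -0.44, -0.095 and -0.16, whereas Rgs5 went from 5.16 to 3.82 and Pdgfrb from 4.21 to 2.50. Col4a1 and Col4a2 went from 3.65 and 4.07 to 3.08 and 3.63, and Sparc from 2.21 to 2.11.

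**Figure D4:**
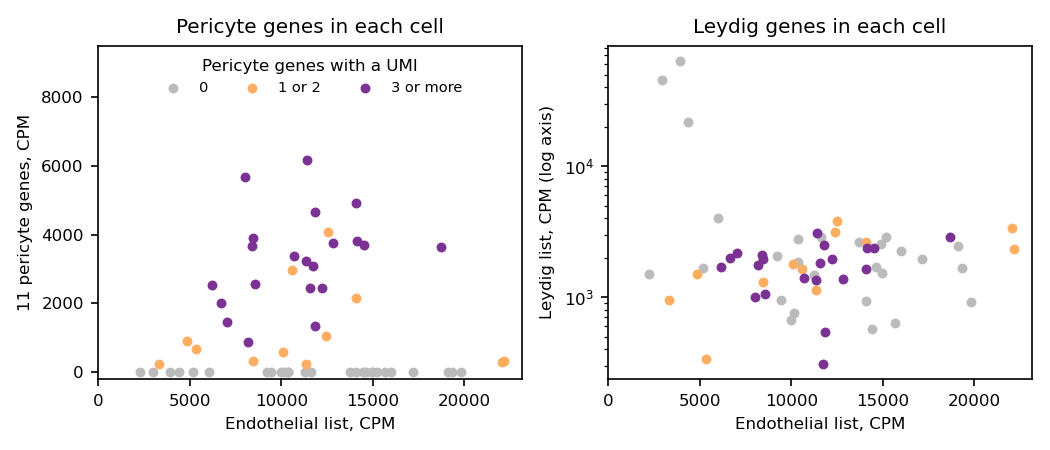
Each point is 1 of the 60 cells, coloured by the number of pericyte genes with a UMI, with the endothelial list level (CPM) on the x axis. The y axes give the 11 pericyte genes (left, CPM), where the 21 purple cells lie among the others along the x axis, and the Leydig list (right, CPM, log axis), where 3 cells lie far above the rest.

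Leydig genes were low in the set but not at 0. All 10 listed genes were at least 2-fold lower than in the other B0 cells, and the summed list had 4619 CPM against 30798, a log2 ratio of -2.74 (-2.82 to -2.65). In this library every cell had at least 1 UMI of the list. The median over the 60 cells was 1806 CPM, close to the 2092 CPM of the macrophage-like set, against 45216 in the other B0 cells and 68822 in the Leydig-like set. Insl3, the Leydig hormone, had 854 CPM and a UMI in 33 of the 60 cells, against 6691 CPM and 91.1% of the others. In 3 of the 60 cells the list was above 10000 CPM (63906, 45526 and 21916), and the next highest had 4015. The highest of these was the 60th-ranked cell, which still had UMIs of 10 endothelial genes, and without it the log2 ratio was -3.26. Over the alternatives tried, the log2 ratio of the list ran from -4.01 (the 30 highest cells) to -1.47 (all 94 cells that passed the detection step).

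Genes of other cell types were seen in parts of the set. The macrophage list had 1410 CPM against 766, with 9 of 11 genes neither higher nor lower. The median over the cells was 288 CPM against 217 and the highest of the 60 had 15133. In 11 cells the list was above 4000 CPM, and they held 78.0% of its UMIs. Of its genes, Cd74, the class II invariant chain, had 479 against 140 and H2-Aa, a class II chain, 108 against 37.4. At least 2 of Csf1r, C1qa, C1qb and C1qc were seen in 10 of the 60 cells. The Sertoli list had 2730 CPM against 3046. The 47th cell by rank stood apart, with 18214 CPM and 7 Sertoli genes beside 7 endothelial genes and the lowest endothelial list level of the set, while the next highest cell had 6133 CPM. Without it the list was at 2458 CPM. Of the 8 Sertoli genes looked at, 1 was at least 2-fold higher, 2 lower and 5 neither. The higher one was Wt1, a factor of Sertoli cells, with 164 CPM in 25 cells against 17.9 (9.16-fold, 6.40 to 12.8). Sox9, another Sertoli factor, had 1 UMI and Fshr, the FSH receptor, 0. Wt1 had 3.91 and 9.06 CPM in the Leydig-like and macrophage-like sets, and 191 CPM in the 27 cells without pericyte genes. Of the 6 stromal genes looked at, 4 were higher, 0 lower and 2 neither, and the summed list had 1104 CPM against 332, with 1555 in the macrophage-like set. Dcn, decorin, had 768 CPM against 194, seen in 25 cells, and Pdgfra, a receptor of stromal cells, had 8.63 against 21.8. In 5 of the 60 cells the stromal list was between 7532 and 18376 CPM, with UMIs of 4 or 5 of its genes and of 8 to 17 endothelial genes, and the next highest cell had 1888. Without those 5 cells the list was at 289 CPM, and whether they were mixed droplets was not tested. Of the 6 lymphocyte genes measured, 4 had 0 UMIs in the set and Ptprc, found on all white blood cells, had 1. Haemoglobin Hba-a1 had 772 CPM against 617, but 1 cell held 170 of its 179 UMIs, and without that cell the level was 39.3 CPM.

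The 10 lowest ratios included Ldhc, the germ cell lactate dehydrogenase (73.3 CPM against 2306), Fabp9, a fatty acid-binding protein of the acrosome (86.3 against 2348), and Meig1, needed for sperm assembly (121 against 3137), with log2 ratios of -4.80, -4.61 and -4.59. In the Leydig-like set Ldhc, Fabp9 and Meig1 had 106, 62.6 and 93.9 CPM, and in the macrophage-like set 118, 195 and 263. Low levels of these genes were thus shared with both sets. Against only those other cells within the UMI range of the 60, the 10 ratios were between -2.53 and -1.50. In the germ cell list 3 of the 7 genes looked at were lower (20.8% of all genes were), but within the UMI range Ddx4 and Tnp1 had log2 ratios of -0.34 and -0.36 and only Stra8 was still 2-fold lower, at -1.88. In the 60 cells Dmc1, Prm1 and Prm2 had 0 UMIs.

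Cells passing the same detection step were rare in the other libraries. At least 2 of the 5 genes were seen in 3 of 8941 A0 cells (0.0336%, 0.00692 to 0.0980%), 5 of 9682 A10 cells (0.0516%, 0.0168 to 0.120%) and 8 of 3778 BA10 cells (0.212%, 0.0915 to 0.417%), against 94 of 4659 in B0 (2.02%, 1.63 to 2.46%). After every cell was thinned to 2900 UMIs, these were 2, 2, 1 and 75 cells. The share in B0 cannot be told apart from the depth at which cells were kept, because all 60 cells had fewer UMIs than the lowest cell of A0 (7687), A10 (6716) or BA10 (9013). Nor can it be told apart from the mix of other cells. In A0, A10, B0 and BA10 the germ cell list had 32982, 38963, 661 and 1436 CPM. The Leydig list had 14.9, 19.4, 30559 and 908 in that order.

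The few cells elsewhere resembled the set in part. All 3 cells of A0 had UMIs of 12 to 24 of the 30 endothelial genes and 7 to 30 Cldn5 UMIs. Each had at least 3 of the 11 pericyte genes. Their germ cell list was at 49334, 3457 and 2415 CPM, where the whole A0 library had 32982. At least 7 endothelial genes, the lowest number in the 60 cells, were seen in 2 of the 5 cells of A10 and 6 of the 8 of BA10, with up to 34 Cldn5 UMIs. Those BA10 cells were deeper, and 5 of the 6 had an endothelial list level of 261 to 1718 CPM, below the lowest of the 60 cells (2246). A further A10 cell with 6 endothelial genes had 1 Cldn5 UMI and 193880 CPM of germ cell genes. Abcb1a was seen in all 3 of the A0 cells, in 2 of 5 in A10 and in 1 of 8 in BA10. Plvap was at 0 UMIs in all 16.

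Over whole libraries, Cldn5 had 49.4 CPM in B0 and 3.46 in BA10, against 1.17 in A0 and 1.66 in A10. Slco1a4 had 4.70, 0.142, 0.0663 and 0.0417 in that order. Other endothelial genes did not follow the number of such cells: Abcg2 had 11.7, 2.87, 20.2 and 18.8 CPM and Flt1 2.76, 0.613, 13.3 and 11.7, both highest in A0, where hardly any cell had 2 of the 5 genes. In sums over a library, the number of endothelial cells, their RNA per cell and the RNA of other cell types cannot be told apart.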

How the data were processed

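Testis cells of 4 pooled-mouse libraries (A0, A10, B0, BA10) were measured with 10x Genomics single-cell 3' chemistry (kit V2). Per the labels, the submitters' processing notes name Cell Ranger 2.2.0 and mm10. The authors deposited 1 table of 18419 genes by 27060 cells, holding the natural log of 1 plus the UMI count scaled to 10000 per cell with Seurat. The study's methods remove cells under 200 genes and genes in under 3 cells. Cells were named by their column prefix, and 0 columns had no sample. It held 0 mitochondrial genes under the mt- prefix. Exponentiating, subtracting 1 and dividing by each cell's lowest result above 0 gave whole UMIs for 100% of values above 0 (tolerance 0.01). Median UMIs per cell were 12685, 10948, 4214 and 17989 in the order above, and 131 to 241 barcodes per library recurred in another library.

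UMIs were summed over the cells of a set, scaled to counts per 1000000 UMIs (CPM), and compared as log2 ratios with a pseudocount of 10 CPM. A gene was called at 2-fold. Intervals are exact (conditional binomial for ratios, Poisson for levels, Clopper-Pearson for shares) at 95%. Doublets were kept and no caller was run here. The level calculation was tested on simulated data. Python 3.11.15, numpy 2.4.6, scipy 1.17.1, pandas 2.3.3 and matplotlib 3.10.9 were used.

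The cells, the 30 gene lists and the rules were chosen with earlier results of these data known. Named genes were those of the lists, the 25 largest log2 ratios among genes seen in at least 12 of the 60 cells, and the 10 lowest among genes seen in at least 20% of the other B0 cells. The lists were rule genes, 30 further endothelial genes, endothelial factors, VEGF ligands and receptors, angiopoietin, Notch, BMP and TGF-beta, arterial, venous, capillary, tip cell, lymphatic, junction, caveolae, transport, basement membrane, leukocyte adhesion, class I, p53, proliferation, immediate early, and markers of Leydig, macrophage, Sertoli, pericyte, stromal, lymphocyte, platelet or red, and germ cells. The transporters and Car4 added to the motif search were chosen after their values were seen. Alternatives covered the number of cells, the detection and ranking rule, each rule gene, the comparison cells, the pseudocount, the level, the depth, the low-value filter and mixed cells. Gene coordinates are from GENCODE M21 and sequences from RefSeq (GRCm38.p6, the same assembly as mm10).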

Additional observations from a re-analysis of the deposited data

Results flagged for a closer look

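The share of cells with at least 2 of the 5 endothelial genes differed in opposite directions between libraries with and without AOS. It was 1.81 percentage points lower in BA10 than in B0 (BA10 minus B0, -1.81) and 0.0181 points higher in A10 than in A0. The A10 and A0 shares rested on 5 and 3 cells. Their intervals overlapped (0.0168 to 0.120% and 0.00692 to 0.0980%), so no difference between A10 and A0 could be measured. With every cell thinned to 2900 UMIs the differences were -1.58 and -0.00171, so the opposite sign did not hold. These differences were not compared by a test, since each group was 1 library. The lowest UMI total of a kept cell (2985 in B0, 9013 in BA10) also differed between the libraries compared.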

How the results depend on the processing

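With 1 library per group there was no replicate to leave out, and many genes had 1 to 3 UMIs in the 60 cells, which limits their ratios. No paired analysis was possible because no result came from a test and the labels give no replicate numbers. Only 94 cells had at least 2 of the 5 genes, so the 120 highest cells could not be taken; all 94 were used instead, an alternative chosen after seeing the data, like those without pericyte-gene cells and against the Leydig-like or macrophage-like cells.

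Under the 16 alternatives tried for it, between 27 and 28 of the 28 endothelial list genes looked at were at least 2-fold higher, a count largely fixed because 24 of the 28 were looked at only through the 60 cells. Over all genes, the 1435 higher became 762 with all 94 cells. The 2033 lower became 1264 when cells were ranked by summed UMIs of the 5 genes, 987 against cells within the UMI range of the 60, 246 with all 94 cells, 1189 against the Leydig-like cells and 1300 against the macrophage-like cells. The other alternatives moved these counts by at most 1.5 times.

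The Leydig list log2 ratio of -2.74 stayed below 0. It was -4.01 with the 30 highest cells, -2.44 with at least 3 of the 5 genes, -2.86 with ranking by UMIs, and -2.87, -2.52, -2.34 and -2.59 without Cdh5, Egfl7, Esam and Emcn in the rule. It was -3.27 within the UMI range, -3.30 as a mean over cells, -3.33 thinned, -3.26 without the member as high in Leydig genes as Leydig cells, -2.33 without pericyte-gene cells and -1.47 with all 94 cells.

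The share of cells with at least 2 of the 5 genes, 2.02% in B0 and 0.212% in BA10, was 1.27% and 0.0529% with at least 3 genes and 1.61% and 0.0265% when thinned.

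Of 3264 pairs of a named gene and an alternative, 569 lay outside the counting interval of the ratio and 9 changed sign. Without pericyte-gene cells the log2 ratio was -0.44 for Abcc9, -0.095 for Kcnj8, -0.16 for Notch3 and -0.078 for Fabp4. Meox1 was at -0.083 with the 30 highest cells. Kcne3 was at 0.21 within the UMI range and 0.43 with all 94 cells, where Rrm2 was at 0.016 and Tnp1 at 0.43. A drop in Abcc9, Kcnj8 and Notch3 is required when cells chosen by them are removed. For the other genes the cause was not tested.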

Other observations

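Some genes outside the lists, picked by family name after the values were seen, were also high in the 60 cells. Ifitm3, an interferon-induced membrane protein that restricts viruses, had 2786 CPM in all 60 cells, against 162 in the other B0 cells, 141 in the Leydig-like set and 1178 in the macrophage-like set. Ifit1, which binds viral RNA, had 90.6 CPM in 11 cells against 2.91. Of 14 interferon-induced Ifi genes looked at, 10 were at least 2-fold higher and 1 lower, beside 14.7% and 20.8% of all genes looked at, but 7 of the 10 were looked at only because the 60 cells had them, so the count is not a result about the family.

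Efna1, a membrane-bound ephrin ligand, had 147 CPM in 24 cells against 1.39. Of 81 cytosolic ribosomal protein genes, 18 (22.2%) were higher and 2 lower, beside 14.7% and 20.8% of all genes looked at, with a median log2 ratio of 0.76 where that of all genes looked at was -0.08, and Rps19 had 7560 CPM against 2620.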
